A study of Mus musculus with 2 samples.

Results

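The genes described here are 36 named members of the unfolded protein response and the amino acid stress response, taken by gene symbol from tables of 52636 genes. They comprised 3 stress sensors, 6 transcription factors, 9 folding factors of the endoplasmic reticulum (ER), 4 factors of ER-associated degradation, 6 enzymes of amino acid synthesis, 3 amino acid transporter genes and 5 other targets of the transcription factor ATF4. Each symbol was found in both tables, and 36 of 36 passed a minimum of 50 counts in the higher library. The tables came from 2 RNA-seq libraries, 1 labelled wild type (WT) and 1 labelled knockout of the microRNA miR-29a (KO). Both were labelled as retina from 8-week-old C57BL/6 mice, and each was a pool of tissue from 3 mice. The labels name no further allele, treatment or sex, and do not say how the knockout was made. With 1 library per group there was no replicate check and no test: every difference compares these 2 libraries and not the genotypes, and every interval covers counting error only.

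Proteins that are secreted or placed in membranes fold inside the ER. When unfolded chains accumulate there, the sensors IRE1, PERK and ATF6 signal to the nucleus: IRE1 starts the splicing of Xbp1 mRNA, ATF6 is cut to release a transcription factor, and PERK phosphorylates the translation factor eIF2. XBP1 and ATF6 raise chaperones and degradation factors. Phosphorylation of eIF2, which other kinases start when amino acids run short, slows translation in general and favours translation of Atf4 mRNA. ATF4 then raises genes that make, import and load amino acids onto tRNA, together with feedback and cell death factors. Much of this response acts on mRNA splicing, cleavage or translation, which the gene counts do not report; the splicing of Xbp1 was not analysed here. Cells that secrete much protein, such as plasma cells and collagen-producing fibroblasts, keep the ER folding genes at high levels.

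The counts totalled 26805902 (library labelled WT) and 24876925 (library labelled KO), and the 36 genes took 0.707% and 0.702% of them. Throughout, values are given for the library labelled WT first and the library labelled KO second. CPM is a gene's count scaled to a common library total, and FPKM, the authors' deposited value, also divides by gene length and is used wherever genes are compared with each other. The defining markers did not match the labelled tissue. The 6 photoreceptor markers summed to 0.373 and 0.322 CPM with Arr3 at 0 in both libraries, and the inner retinal neuron markers Grm6, Pou4f2, Gad1, Lhx1 and Calb1 were at 0 in both. The inner retinal neuron list summed to 46.6 and 49.0 CPM, nearly all of it Rbpms (885 and 790 counts) and Slc6a9 (363 and 428 counts), which are not limited to retina. A count of 0 allows up to 0.112 and 0.121 CPM (3 counts). The 8 fibroblast markers summed to 15203 and 17420 CPM. Other lists moved between the libraries. The 8 macrophage markers summed to 156 and 573 CPM, with 8 of 8 at least 2-fold higher in the library labelled KO. The 6 endothelial markers summed to 23.3 and 43.3 CPM but did not move together. Cdh5, Pecam1 and Kdr were at least 2-fold higher. Tek (176 and 167 counts), Emcn (212 and 163) and Cldn5 (16 and 9) had folds of 1.02, 0.83 and 0.61, with intervals that included 1. The 8 interferon response genes summed to 1283 and 272 CPM, with 7 of 8 at least 2-fold lower, and the 8 hypoxia genes to 460 and 320 CPM. Of the 6 plasma cell markers, Mzb1 and Igkc were at 0 in both libraries, and the list's sum of 354 and 372 CPM was nearly all Sdc1, which other cell types also express. Xist, transcribed from the inactive X chromosome, had 4288 and 0 counts and the Y-linked Kdm5d 30 and 310, so the pools also differed in the sex of their animals. Mir29a had 0 counts in both tables and does not check the labels. The part of these differences in the values below was not tested, and in bulk RNA fewer cells of a type and less RNA per cell cannot be told apart.

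The 2 arms of the response are set apart by short DNA motifs, so the promoters of the members were searched first. The windows were RefSeq's (GRCm38.p6), 250 bases before to 50 bases after a gene's start; 32 of 36 members had an entry, the others being Atf6, Hyou1, Manf and Slc7a5. The ER stress response element was searched as CCAAT, any 9 bases, then CCACG, and the C/EBP-ATF response element as TGATG, any base, then AA, each on both strands. The ER element was in 39 of 32851 promoter windows (0.119%), or 37 of 27025 genes with a window (0.137%). Among members of the ER folding and degradation lists it was in 5 of 11 genes (45.5%). It was in 0 of 13 amino acid genes and other ATF4 targets, and in 0 of 8 sensors and transcription factors. These 5 stretches are shown because they hold the element, in capitals, and lie on the strand of the gene.
Calr, chr8:84847063-84847105, minus strand: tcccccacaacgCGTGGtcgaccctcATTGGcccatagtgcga
Canx, chr11:50325788-50325830, minus strand: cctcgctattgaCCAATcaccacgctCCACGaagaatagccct
Creld2, chr15:88819508-88819550, plus strand: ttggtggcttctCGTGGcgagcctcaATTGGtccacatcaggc
Pdia6, chr12:17266479-17266521, plus strand: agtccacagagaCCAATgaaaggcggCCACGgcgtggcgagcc
Syvn1, chr19:6046520-6046562, plus strand: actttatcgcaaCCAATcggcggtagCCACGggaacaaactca
In Calr and Creld2 the element was reversed, so the capitals read as its complement. Its last base lay 144 bases before the start in Calr, 127 in Canx, 108 in Creld2, 80 in Pdia6 and 26 in Syvn1.

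The C/EBP-ATF element was in 1304 of 32851 windows (3.97%), or 1219 of 27025 genes with a window (4.51%). Among the amino acid genes and other ATF4 targets it was in 4 of 13 genes (30.8%): Asns, Chac1, Trib3 and Vldlr. It was also in 1 of 11 ER folding and degradation members, Herpud1, and in 1 of 8 sensors and transcription factors, Atf3. No member's window held both elements. The 5 stretches below hold the element before the RefSeq start, again with its bases in capitals, and in Trib3 it lay after that start. The stretches of Asns, Atf3 and Vldlr lie inside the span that the GENCODE M21 annotation gives the gene. They are thus not before the start in that annotation.
Asns, chr6:7693213-7693244, minus strand: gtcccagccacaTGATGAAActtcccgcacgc
Atf3, chr1:191183424-191183455, minus strand: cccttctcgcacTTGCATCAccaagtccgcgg
Chac1, chr2:119351037-119351068, plus strand: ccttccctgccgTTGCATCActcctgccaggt
Herpud1, chr8:94386305-94386336, plus strand: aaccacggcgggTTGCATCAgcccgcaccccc
Vldlr, chr19:27216808-27216839, plus strand: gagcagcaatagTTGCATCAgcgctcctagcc
Only Asns carried the element in the gene's orientation. A match describes the letters of a window and does not show that a factor binds there. A window without a match lacks only the exact spelling searched, and sequence outside the windows was not searched.

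**Figure D1:**
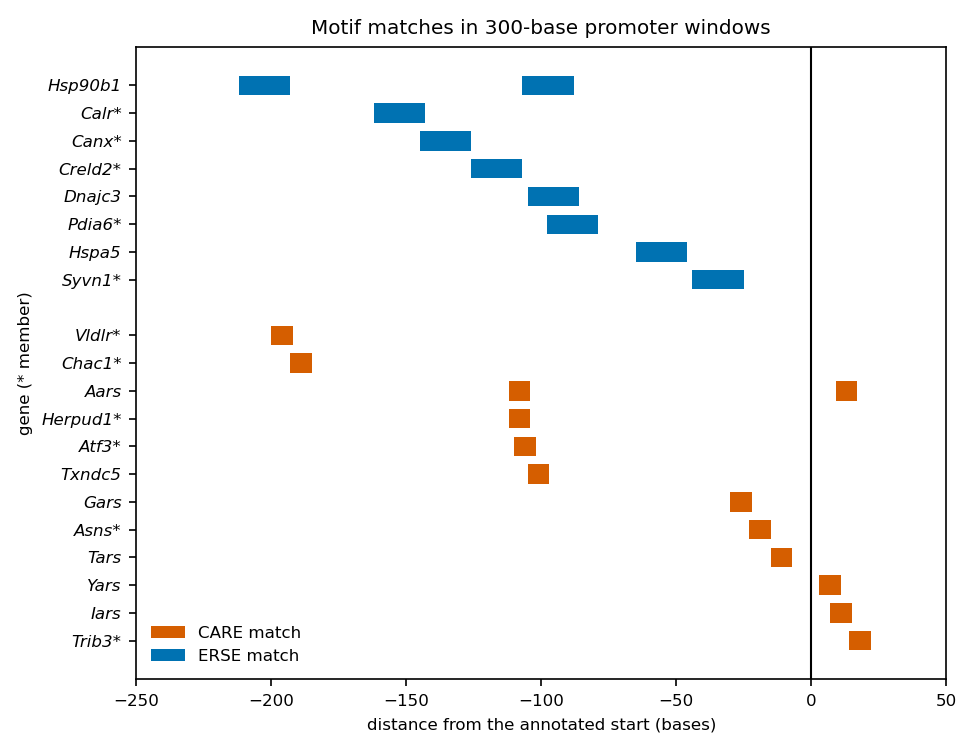
Position of each motif match by distance from the gene's RefSeq start in bases (x axis, where 0 is the start and negative is upstream), 1 line per gene, for members (starred), other ER folding genes and tRNA synthetases. ERSE is the ER stress response element and CARE the C/EBP-ATF response element. The ERSE matches in members end between 144 and 26 bases before the start, all in ER folding or degradation genes, whereas the CARE matches lie on both sides of the start.

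Because the KO label refers to miR-29a, its site was searched in the same genes. A microRNA lowers mRNAs that pair with its seed, bases 2 to 8, shown here in capitals in the mature miR-29a-3p (RefSeq, GRCm38.p6, chr6:31062673-31062694, minus strand).
miR-29a-3p: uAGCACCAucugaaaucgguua
The matching heptamer TGGTGCT was in the longest annotated 3′ UTR of 5 of 36 members (13.9%), against 1860 of 11585 protein-coding genes past the minimum (16.1%). The 5 sites follow, on the minus strand of GRCm38 in each case, with the heptamer in capitals.
Ern1, chr11:106397882-106397911: actcagttctggatgTGGTGCTggcccagc
Sel1l, chr12:91806753-91806782: cccaggtttgctctcTGGTGCTtaggagca
Slc7a1, chr5:148330684-148330713: taaagttatgtagatTGGTGCTgtaaaata
Slc7a5, chr8:121881526-121881555: aagggcagggattcaTGGTGCTgacccagg
Trib3, chr2:152337888-152337917: cggggctgtcttctcTGGTGCTggttcatg
The log2 ratios (library labelled KO over library labelled WT, with 0.5 CPM added to each) of these 5 genes were 0.15 for Ern1, 0.10 for Sel1l, 0.61 for Slc7a1, 0.44 for Slc7a5 and -0.33 for Trib3. They lay on both sides of 0, as the members without a site did. After the correction for GC content and length that of Sel1l turned to -0.09 and that of Trib3 was -0.01. Those of Ern1, Slc7a1 and Slc7a5 stayed above 0, at 0.12, 0.59 and 0.59.

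No member differed by 2-fold between the libraries. Of 12382 genes past the minimum, 4.47% were at least 2-fold higher in the library labelled KO and 2.82% at least 2-fold lower, against 0 of 36 members in either direction. At a smaller step of 1.5-fold, 5 members were higher, Cebpg, Psat1, Phgdh, Mthfd2 and Slc7a1 (13.9% of members, 13.3% of all genes). At that step 3 were lower, Sdf2l1, Shmt2 and Ppp1r15a (8.33% of members, 8.88% of all genes). The shares of members are near those of all genes, so the counts do not set the members apart. The 95% counting interval lay wholly above 1 for 19 members (52.8%, against 40.3% of all genes) and wholly below 1 for 12 (33.3%, against 31.2%), in both cases with no allowance for differences between animals. Such intervals narrow as the count rises, and these shares were not matched for count. The median log2 ratio was 0.09 over the members and 0.06 over all genes, and the median size of the ratio, sign ignored, was 0.32 and 0.31. What follows therefore describes direction and order within the response rather than large changes.

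**Figure D2:**
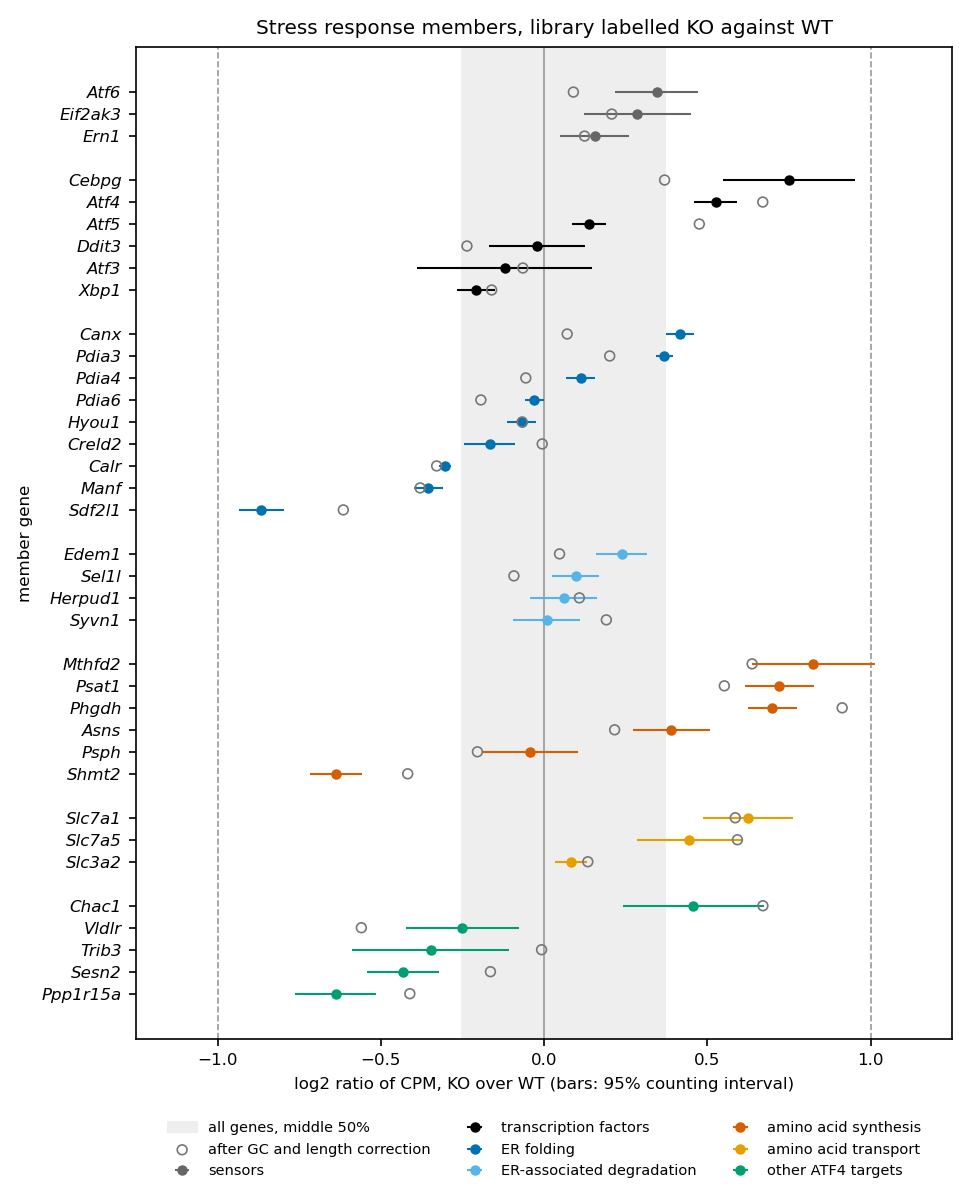
Log2 fold of KO over WT for each of the 36 members (x axis, no addition), grouped by role. Filled points are folds with 95% counting intervals, open circles are log2 ratios after the GC and length correction, and the grey band spans the middle 50% of all genes past the minimum, log2 ratios of -0.25 to 0.37. The points for Mthfd2, Cebpg, Psat1 and Phgdh lie farthest to the right and that for Sdf2l1 farthest to the left.

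The 3 sensors stood below the median level of the 36 members (18.5 and 17.6 FPKM) and were slightly higher in the library labelled KO. Ern1, which encodes the kinase and RNase IRE1, had 1425 and 1472 counts, 53.2 and 59.2 CPM, a 1.11-fold difference (95% counting interval 1.03–1.20). Eif2ak3, which encodes PERK, had 581 and 657 counts, 21.7 and 26.4 CPM, a 1.22-fold difference (1.09–1.36). Atf6, the membrane-bound factor that is cut in the Golgi, had 932 and 1098 counts, 34.8 and 44.1 CPM, a 1.27-fold difference (1.16–1.39). Each sensor was higher in the library labelled KO by less than 1.5-fold, and per length they stood at 6.88 and 7.37 FPKM for Ern1, 3.80 and 4.46 for Eif2ak3, and 3.98 and 4.87 for Atf6. After the GC and length correction the log2 ratio of Atf6 went from 0.34 to 0.09, and those of Ern1 and Eif2ak3 were 0.12 and 0.21.

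The transcription factors went in different directions, with Atf4 and Cebpg higher in the library labelled KO, Xbp1 lower and Ddit3 nearly level. Atf4 (chr15:80255184-80257541), the effector of eIF2 phosphorylation, had 3317 and 4429 counts, 124 and 178 CPM, a 1.44-fold difference (1.37–1.51). Cebpg (chr7:35046422-35056573), a partner with which ATF4 forms dimers on amino acid genes, had 334 and 521 counts, 12.5 and 20.9 CPM, a 1.68-fold difference (1.46–1.93). Xbp1 had 5374 and 4311 counts, 200 and 173 CPM, and was 1.16-fold lower (1.11–1.20). The factor of the ATF4 arm and the factor of the IRE1 arm thus lay on opposite sides of 0. Atf5, a relative of Atf4 that is also controlled at translation, had 229 and 252 CPM, a 1.10-fold difference (1.06–1.14). Ddit3, which encodes the cell death factor CHOP and is induced by ATF4, had 800 and 731 counts, 29.8 and 29.4 CPM, with a fold of 0.985 (0.889–1.09). Atf3, a stress-induced repressor, had 253 and 216 counts, 9.44 and 8.68 CPM, with a fold of 0.920 (0.764–1.11). The intervals of Ddit3 and Atf3 included 1, so no difference was detectable at this depth. Within each library Atf4 stood 4.12 and 6.02 times above Ddit3 in FPKM.

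The ER folding genes had the highest median level of the role lists and held both directions, 3 of 9 above 0 and 6 below. Calr encodes calreticulin, the soluble lectin chaperone and calcium store of the ER. It had 53294 and 40046 counts, 1988 and 1610 CPM, making up 28.1% and 22.9% of all member counts, and its level with the KO label was 1.23-fold lower (1.22–1.25). Canx encodes calnexin, the membrane-bound partner in the same glycoprotein cycle, and went the other way, with 8131 and 10065 counts, 303 and 405 CPM, a 1.33-fold difference (1.30–1.37). In FPKM, Calr stood 10.7 and 6.48 times above Canx in the respective libraries.

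Among the disulfide isomerases, Pdia3, which works with both lectins, was higher, with 22124 and 26506 counts, 825 and 1065 CPM, a 1.29-fold difference (1.27–1.31). Pdia4 stood at 302 and 327 CPM, a 1.08-fold difference (1.05–1.11). Pdia6 stood at 816 and 799 CPM, a fold of 0.980 (0.961–0.999). These isomerases therefore ran from higher to nearly level, and none reached 1.5-fold. Hyou1, a large chaperone that serves as exchange factor for BiP, had 318 and 303 CPM, a fold of 0.953 (0.924–0.983).

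The smaller ER stress proteins were lower in the library labelled KO. Sdf2l1 (chr16:17130138-17132383), a component of a chaperone complex with BiP and ER J-domain proteins, had 5089 and 2590 counts, 190 and 104 CPM, with a fold of 0.548 (0.523–0.575), the lowest of the 36. Manf, a secreted and ER-resident factor that binds BiP, had 9596 and 6960 counts, 358 and 280 CPM, with a fold of 0.782. Creld2, another ER-resident stress gene, had 2978 and 2462 counts, 111 and 99.0 CPM, with a fold of 0.891 (0.844–0.940). These genes and Calr were all lower, but by amounts from 1.12-fold for Creld2 to 1.82-fold for Sdf2l1, so the ratio of Sdf2l1 to Creld2 in FPKM was 2.10 and 1.30. After the GC and length correction Creld2 was level, with a log2 ratio of -0.006. Sdf2l1 (-0.62), Manf (-0.38) and Calr (-0.33) stayed below 0. Of the 4 members of the ER folding list with an ER element in the window, Canx was higher, Calr and Creld2 lower and Pdia6 nearly level before the correction. After it Canx was at 0.07 and Pdia6 at -0.19.

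The degradation genes were close to level. Edem1, a lectin that picks glycoproteins for disposal, had 2566 and 2807 counts, 95.7 and 113 CPM, a 1.18-fold difference (1.12–1.24). Sel1l, the adaptor of the ubiquitin ligase HRD1, stood at 117 and 125 CPM, a 1.07-fold difference (1.02–1.12). Syvn1, which encodes HRD1 itself, stood at 59.6 and 59.9 CPM, a 1.01-fold difference (0.936–1.08). Herpud1, a scaffold of the same complex, stood at 59.1 and 61.5 CPM, a 1.04-fold difference (0.971–1.12). The log2 ratios of the 4 genes lay between 0.01 and 0.24. Only Edem1 differed by more than 1.1-fold.

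**Figure D3:**
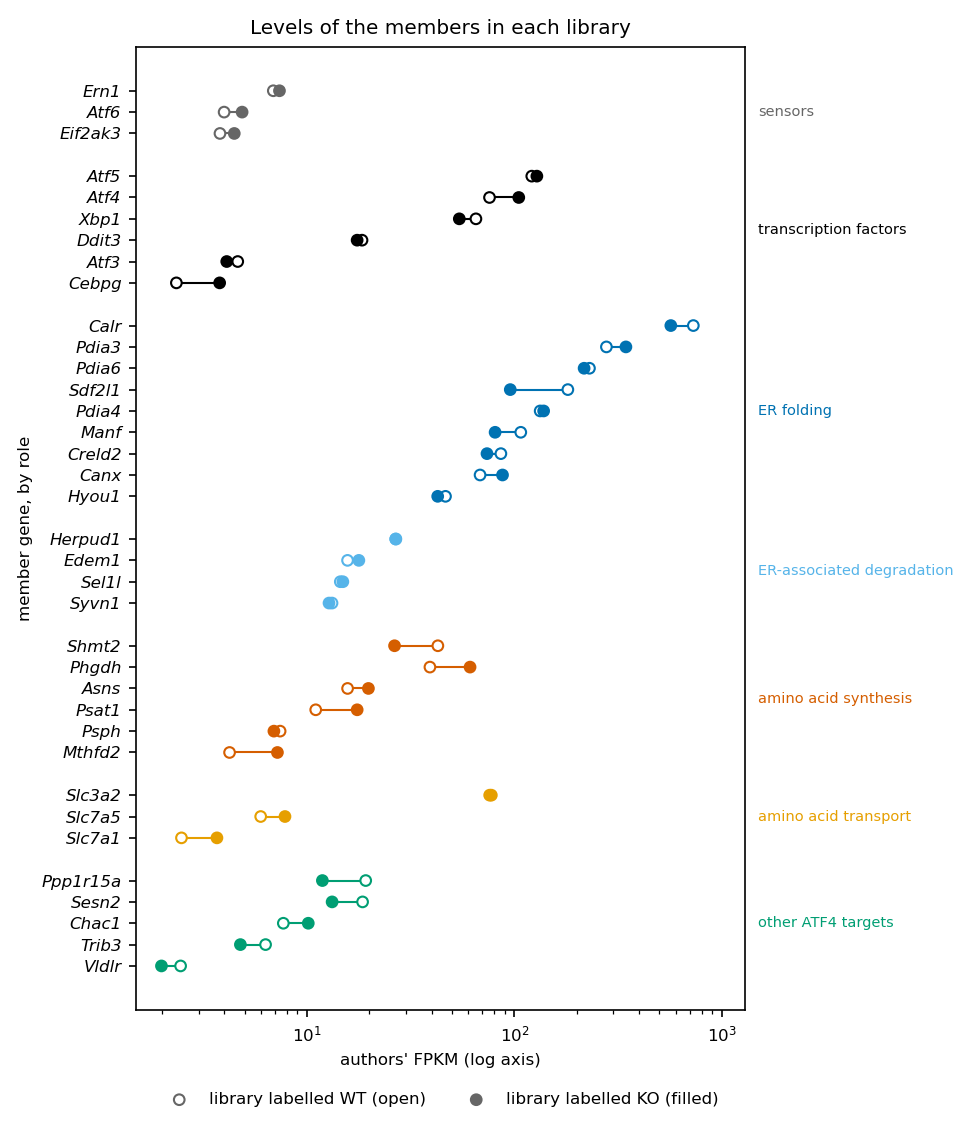
Level of each member in FPKM on a log axis, grouped by role, with 1 point for the library labelled WT and 1 for the library labelled KO. Calr stands highest at 730 and 569 FPKM, and most amino acid genes lie below the ER folding genes in both libraries.

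The amino acid synthesis genes moved apart from each other. The serine pathway starts with Phgdh (chr3:98313170-98339990), the enzyme that draws 3-phosphoglycerate from glycolysis. It had 2468 and 3718 counts, 92.1 and 149 CPM, a 1.62-fold difference (1.54–1.71). Psat1 (chr19:15904678-15947337), the transaminase of the second step, had 1188 and 1816 counts, 44.3 and 73.0 CPM, a 1.65-fold difference (1.53–1.77). Psph, the phosphatase that releases serine, had 814 and 733 counts, 30.4 and 29.5 CPM, with a fold of 0.970 (0.877–1.07). The first and second steps were thus over 1.5-fold higher in the library labelled KO, whereas no difference was detectable at this depth for the last.

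The mitochondrial one-carbon genes, which take carbon from serine, went in opposite directions. Shmt2 (chr10:127517123-127522444), which splits serine to glycine, had 3371 and 2010 counts, 126 and 80.8 CPM, and was 1.56-fold lower (1.47–1.65). Mthfd2 (chr6:83305691-83325908), the dehydrogenase of the next step, had 374 and 614 counts, 14.0 and 24.7 CPM, a 1.77-fold difference (1.55–2.02), the highest of the 36. Per length, Mthfd2 stood at 0.0989 and 0.272 of the FPKM of Shmt2. Phgdh stood at 0.916 and 2.31 times that FPKM. Asns, which makes asparagine and carries the C/EBP-ATF element shown above, had 1088 and 1323 counts, 40.6 and 53.2 CPM, a 1.31-fold difference (1.21–1.42).

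Features of these genes' sequences bear on their counts. Phgdh has 9 processed pseudogenes that match it at 95% identity or more over at least 200 bases, of which 8 were in the tables. Their counts summed to 339 and 42, led by Gm7901 at 228 and 30. With these counts added, Phgdh had 2807 and 3760 counts, a 1.44-fold difference (1.37–1.52), which is under 1.5-fold. How the authors' counting divided reads between Phgdh and its copies was not given in the sources used here. Shmt2 shares 32 exonic bases with Ndufa4l2, a hypoxia gene on the opposite strand with 840 and 22 counts, and Psph shares 452 bases, 10.4% of its exonic length, with Cct6a, which had 2592 and 3952 counts. The library kit does not mark strand, so reads from shared bases cannot be told apart; 12 of 36 members share some exonic bases with another annotated gene.

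The transporter genes were all higher in the library labelled KO. Slc7a1 (chr5:148327410-148399904), the main importer of arginine and lysine, had 725 and 1037 counts, 27.05 and 41.7 CPM, a 1.54-fold difference (1.40–1.70). Slc7a5, the light chain of the large neutral amino acid exchanger LAT1, had 562 and 710 counts, 20.97 and 28.5 CPM, a 1.36-fold difference (1.22–1.52). Slc3a2, the heavy chain that LAT1 and related exchangers share, had 6802 and 6685 counts, 254 and 269 CPM, a 1.06-fold difference (1.02–1.10). The light chain differed more than the heavy chain, and in FPKM Slc3a2 stood 12.7 and 9.89 times above Slc7a5.

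The other ATF4 targets lay mostly on the opposite side, 1 of 5 above 0 and 4 below. Chac1, which breaks down glutathione, had 319 and 406 counts, 11.9 and 16.3 CPM, a 1.37-fold difference (1.18–1.59). Ppp1r15a (chr7:45522916-45526268), which encodes GADD34, the subunit that directs eIF2 dephosphorylation, had 1429 and 852 counts, 53.3 and 34.2 CPM, and was 1.56-fold lower (1.43–1.70). Sesn2, an inhibitor of mTORC1 that senses leucine, had 1633 and 1123 counts, 60.9 and 45.1 CPM, with a fold of 0.741 (0.686–0.800). Both were lower while Atf4 was higher, by less after the GC and length correction (log2 ratios of -0.41 and -0.16). Trib3, a pseudokinase induced by ATF4 and CHOP, had 340 and 248 counts, 12.7 and 9.97 CPM, with a fold of 0.786 (0.665–0.928) and a corrected log2 ratio of -0.01. Vldlr, a lipoprotein receptor whose transcription ATF4 raises under ER stress, had 627 and 489 counts, 23.4 and 19.7 CPM, with a fold of 0.840 (0.745–0.947). The correction moved Vldlr and Chac1 farther from 0, Vldlr from -0.25 to -0.56 and Chac1 from 0.44 to 0.67. Of the 4 ATF4-arm members with a C/EBP-ATF element, Asns and Chac1 were higher and Trib3 and Vldlr lower in the library labelled KO.

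Setting the ER folding genes against the ATF4 amino acid genes (synthesis and transport together) answers the comparison for which the members were collected. The median log2 ratio was -0.07 over the 9 ER folding genes and 0.44 over the 9 amino acid genes, a difference of medians of 0.50, beside 0.06 over all genes. Of the folding genes 3 were above 0, and of the amino acid genes 7 were, with Psph and Shmt2 below. The ranges overlapped widely, -0.86 to 0.41 for folding and -0.64 to 0.80 for amino acid genes. In summed CPM the folding genes stood at 5212 and 4992, and the amino acid genes at 649 and 750. The median level of the folding genes was 133 and 95.6 FPKM, and that of the amino acid genes 11.0 and 17.5 FPKM, so the folding genes were the more abundant list in both libraries. When the degradation genes were added to the first list and the other ATF4 targets to the second, the medians were 0.0076 and 0.23 and their difference 0.23, which turned the sign of the first and lowered the difference by more than 1.5 times. With 1 library per group the difference has no test.

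**Figure D4:**
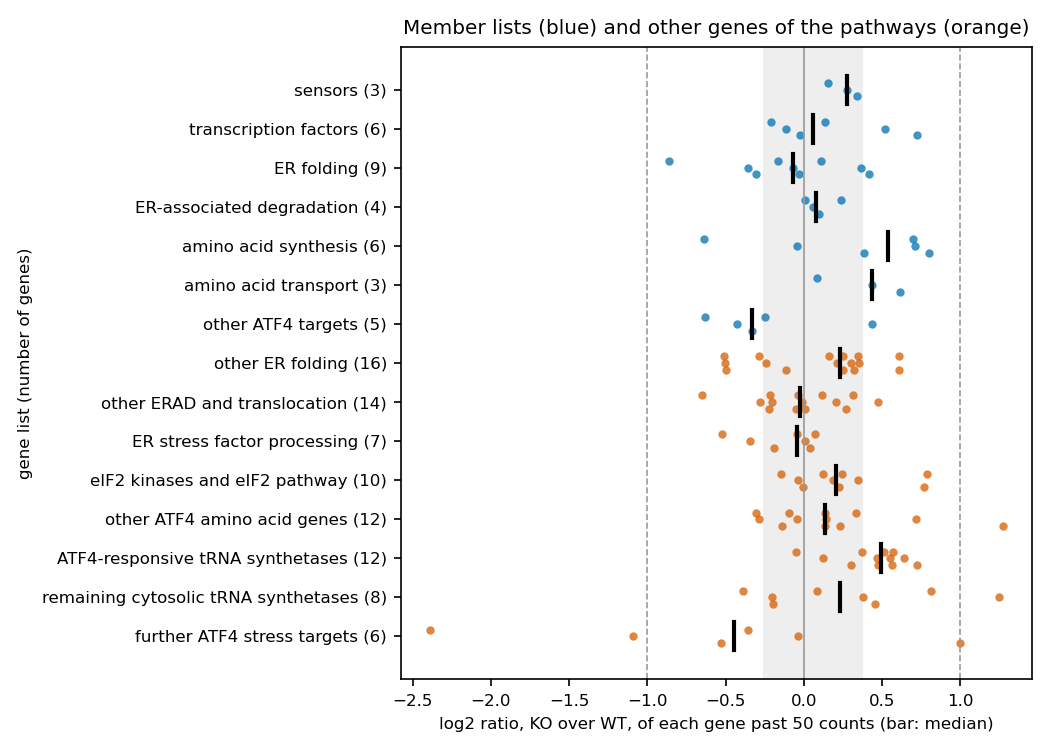
Log2 ratio of KO over WT for each gene of the role lists and of the other pathway lists, with a bar at each list's median. The grey band spans the middle 50% of all genes, and dashed lines mark 2-fold. The ER folding median is -0.07, the amino acid synthesis median 0.54, the transport median 0.44 and the median of the other ATF4 targets -0.33, and single genes of neighbouring lists overlap.

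The ratios of all genes moved with base composition, and this touches both lists. Spearman's rho of the log2 ratio with transcript GC content was -0.44 over all genes past the minimum and -0.31 over the members, given as descriptions across genes of the same 2 libraries. The median GC content was 51.3% for the amino acid genes and 49.9% for all genes, and that of the folding genes lay between them. After the median of genes of like GC content and like length was subtracted, the medians were -0.07 and 0.55. The correction moved single members more. Cebpg, at 43.3% GC, went from 0.73 to 0.37, and Canx, at 42.2%, from 0.41 to 0.07. Phgdh, at 57.2%, went from 0.70 to 0.91, Atf4 from 0.52 to 0.67 and Chac1 from 0.44 to 0.67. On this scale 6 members were 1.5-fold or more higher, Atf4, Phgdh, Mthfd2, Slc7a1, Slc7a5 and Chac1 (16.7%, against 8.62% of all genes), and 1 was lower, Sdf2l1 (2.78%, against 8.83%). Cebpg, Psat1, Shmt2 and Ppp1r15a no longer reached 1.5-fold, with ratios of 0.37, 0.55, -0.42 and -0.41, and the direction of Pdia4 and Sel1l turned. The part of composition in the differences was not tested beyond this correction.

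**Figure D5:**
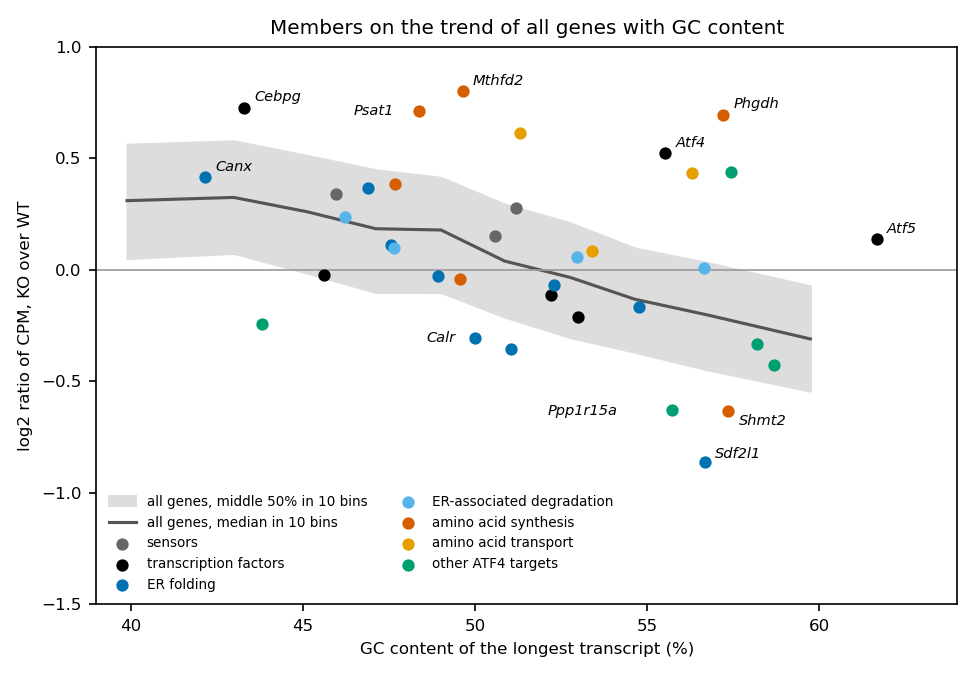
Log2 ratio of KO over WT against transcript GC content in percent. The line joins the medians, and the band the middle 50%, of 10 bins of all genes past the minimum, and the points are the 36 members by role; the line falls from left to right, and Phgdh, Atf4 and Chac1 lie above it while Sdf2l1, Shmt2 and Ppp1r15a lie below.

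Other genes of the ER arm also held both directions. Of 16 further folding genes, 10 were above 0 and 6 below, with a median of 0.23 (-0.05 after the GC and length correction). Beside 13.3% of all genes past the minimum, 2 of the 16 were at least 1.5-fold higher. These were Hsp90b1, the ER form of HSP90, with 10683 and 15104 counts and a log2 ratio of 0.61, and Dnajc10, a reductase with a J domain, with 1898 and 2690 counts and 0.61. Hspa5, which encodes the central ER chaperone BiP, had 26110 and 28787 counts and a log2 ratio of 0.25, whereas P4hb, a disulfide isomerase and collagen prolyl hydroxylase subunit, had 35544 and 27065 counts and -0.29. Ppib, a prolyl isomerase for collagen, had 11639 and 7567 counts and -0.51. After the GC and length correction the log2 ratio of Hspa5 turned to -0.06 and that of Hsp90b1 was 0.27, under 1.5-fold, as was that of Dnajc10 at 0.33. The ER element was in the windows of Hspa5, Hsp90b1 and Dnajc3 among 13 of these genes with an entry. Of 14 further degradation and translocation genes 6 were above 0 and 8 below, with a median of -0.02; Edem2, a mannosidase, had 2885 and 1698 counts and -0.65, and Ube2j1, an ER ubiquitin-conjugating enzyme, 0.47. The 7 measured genes of ER stress factor processing had a median of -0.04, with the ER-bound factors Creb3l1 at -0.52, Creb3 at -0.34 and Creb3l2 at -0.19.

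Other genes of the eIF2 and ATF4 arm held both directions. Of the 10 genes of eIF2 kinases and the eIF2 pathway 7 were above 0 and 3 below, with a median log2 ratio of 0.21 (0.04 corrected). Eif2s1, the subunit of eIF2 that the kinases phosphorylate, had 1112 and 1788 counts and a log2 ratio of 0.79. Eif2b3, a subunit of the exchange factor eIF2B, had 491 and 784 counts and 0.77. After the correction these ratios were 0.43 and 0.54, both under 1.5-fold. Of the further amino acid genes 12 of 13 passed the minimum, 7 above 0 and 5 below, with a median of 0.14 (0.05 corrected). Among them Slc7a11, the cystine importer, had 1144 and 2590 counts and was 2.44-fold higher (2.27–2.62), with a corrected log2 ratio of 0.98, under 2-fold. Cth, which makes cysteine, had 184 and 289 counts and a log2 ratio of 0.72 (0.49 corrected, under 1.5-fold). The median of this list was lower than that of the 9 amino acid members, so the higher values of the members did not extend to every gene of amino acid supply.

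Aminoacyl-tRNA synthetases load amino acids onto tRNA. Of the 12 cytosolic synthetases known to respond to ATF4, 11 were above 0 with intervals wholly above 1, and the list's median was 0.49 (0.38 corrected). Of all genes past the minimum, 40.3% had intervals wholly above 1, a share that was not matched for count. Nars had 2815 and 4327 counts and a log2 ratio of 0.73, Lars 1217 and 1766 counts and 0.64, and Eprs a log2 ratio of 0.57. After the correction these ratios were 0.56, 0.44 and 0.24, all under 1.5-fold. Sars, the exception, had 7688 and 6908 counts and -0.05. The summed level of the 12 genes was 1144 and 1501 CPM. Of the 8 remaining cytosolic synthetases, 5 were above 0 with intervals wholly above 1, and 3 were below 0 with intervals wholly below 1. Their median was 0.23 (0.12 corrected). Farsb had 740 and 1653 counts and was 2.41-fold higher, and Qars had 6669 and 4736 counts and a log2 ratio of -0.39. The C/EBP-ATF element was in 5 of 7 windows of the first list, those of Aars, Gars, Iars, Tars and Yars, and in 0 of 5 of the second. The difference between these lists was not tested.

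The further stress targets of ATF4 lay mostly below 0, as Trib3, Sesn2 and Ppp1r15a did. Of 7 such genes 6 passed the minimum, 1 above 0 and 5 below, with a median log2 ratio of -0.44 (-0.25 corrected). Eif4ebp1, counted among those below, was nearly level, with 4947 and 4479 counts and a fold of 0.976 (0.937–1.02). Gdf15, a secreted stress cytokine, had 4217 and 737 counts and -2.39, Stc2, a secreted glycoprotein, 162 and 64 counts and -1.09, and Ddit4, an mTORC1 inhibitor that hypoxia also induces, 6161 and 3954 counts and -0.53. Nupr1, a stress-induced chromatin protein, went the other way, with 364 and 689 counts, a 2.04-fold difference (1.79–2.32) that was under 2-fold after correction (log2 ratio 0.84). Of the 7 hypoxia genes past the minimum, 6 were lower in the same library, 4 of them by at least 2-fold, whereas Vegfa, with 4785 and 6259 counts, was 1.41-fold higher (1.36–1.46). Their part in these values was not tested.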

How the data were processed

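The authors' deposited tables give, per the file headers, a read count and an FPKM value for each gene of each library. Per the labels' protocols, total RNA was depleted of ribosomal RNA with Ribo-Zero, prepared with a NEBNext Ultra RNA kit and sequenced on an Illumina HiSeq. Per the submitters' processing notes, reads were aligned with HISAT2 to GRCm38 (mm10). No read counter or annotation release is named in the sources used here. Counts were used as deposited. Left out were 4 genes whose count-to-FPKM ratio changed by more than 1% from one table to the other.

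Counts were divided by the library total to give CPM, and log2 ratios were taken with 0.5 CPM added. Folds, with no addition, carry 95% exact (Clopper-Pearson) counting intervals, which cover counting error only, as PCR reads lacking molecular identifiers are not independent. The minimum was 50 counts in whichever library was higher, and a call was a 2-fold difference on the log2 scale. Positions, GC content, lengths and 3′ UTRs came from GENCODE M21 (52403 of 52636 identifiers matched), promoters and the microRNA from RefSeq (GRCm38.p6). All members are named; of other lists, the 3 genes with the largest absolute log2 ratio and the 2 with the highest CPM could be named. The members and lists were chosen with earlier results of these data known. The procedure was tested on simulated data that held counting error only, so that test does not cover differences between animals. Software was Python 3.11.15, pandas 2.3.3, scipy 1.17.1 and edgeR 4.0.16 (TMM factors as an alternative scaling). A marker gene of the lists is not reported here.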

Additional observations from a re-analysis of the deposited data

How the results depend on the processing

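The count of members at 2-fold was 0 in both directions under every other scaling, pseudocount, count minimum, unit and correction run; at 1.5-fold it was 5 higher and 3 lower. The ER folding median was -0.07, and it was -0.13 with median-of-ratios factors, -0.13 with the median of all genes subtracted, -0.12 with the authors' FPKM, and 0.0076 with the wider list (degradation genes added). The amino acid median of 0.44 and the difference of 0.50 were both 0.23 with the wider lists. Under the remaining alternatives they ranged from 0.36 to 0.55 and from 0.48 to 0.62, and the folding median from -0.10 to -0.07. Single members that changed sign were Pdia4 and Sel1l after the GC and length correction, Syvn1 with TMM factors or FPKM, and Herpud1 and Syvn1 with median-of-ratios factors or centring. Adding the counts of its pseudogenes, chosen after seeing the data, lowered the log2 ratio of Phgdh from 0.70 to 0.53.

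No paired analysis was possible because each group has 1 library, although both labels carry the number 1; leaving out a replicate would leave an empty group, so it was not run. The counting intervals of Atf3, Ddit3, Psph, Herpud1 and Syvn1 include 1, so no difference was detectable for them at this depth. Those of Herpud1 (0.971–1.12) and Syvn1 (0.936–1.08) lie around folds near 1.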

Other observations

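Beyond the genes described above, the search of the wider lists found the ER stress response element in the window of Derl3, an ER degradation factor. The C/EBP-ATF element was in the windows of Got1, Pycr1, Slc1a4 and Slc7a11 among the further amino acid genes, and of Fgf21, Jdp2 and Nupr1 among the further stress targets. Slc7a11, the amino acid gene with the largest log2 ratio (1.28), held 2 matches, both before the start. The other genes named here with the C/EBP-ATF element held both directions. Got1 had a log2 ratio of 0.23 and Nupr1 was 2.04-fold higher in the library labelled KO. Pycr1 (-0.30), Slc1a4 (-0.29) and Jdp2 (-0.36) were lower, and Fgf21 did not pass the count minimum. Gm9347, a further processed pseudogene of Phgdh, had 88 and 10 counts (WT label first), so the copies as a group were 7.49-fold lower (5.43–10.6) while Phgdh itself was higher. The cause was not tested.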
